A study of Homo sapiens with 33 samples.

Results

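The 7 genes described here are regulators of the NRF2 pathway: NFE2L2, KEAP1, MAFG, MAFF, MAFK, BACH1 and SQSTM1. They were chosen by name, with earlier results of these data known, as the rows of the count table whose Ensembl identifiers carry these symbols. Each symbol matched 1 of the 60675 genes of the table. All 7 were among the 17432 genes that had enough counts to be tested. RNA was sequenced from HT29, an established human colorectal adenocarcinoma cell line, 24 h after treatment with 70% ethanol extracts of 4 East Asian herbal formulas or with vehicle. Sagunja-tang and Samul-tang were each given at 500, 100 and 20 µg/mL in 2 libraries per dose, which carry replicate numbers 2 and 3. Palmul-tang and Sibjeondaebo-tang were given at the same doses in 3 libraries each, and there were 3 vehicle libraries. The doses are called high, medium and low, and 4 values in a row stand for the extracts in the order of these names. The sample labels give vehicle as 0.1% DMSO and the series text gives 2%, and which one applied was not settled. No group carried a genetic change, and all came from the 1 line.

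NRF2, the product of NFE2L2, is a transcription factor that switches on genes for detoxifying enzymes, glutathione synthesis and the disposal of oxidants. KEAP1 is the adaptor that presents NRF2 to a CUL3 ubiquitin ligase, so that NRF2 is degraded unless oxidants or electrophiles modify KEAP1. In the nucleus NRF2 pairs with the small MAF proteins MAFG, MAFF and MAFK on antioxidant response elements, the same elements that BACH1 occupies with small MAF partners as a repressor. SQSTM1, also called p62, is an autophagy receptor that binds KEAP1 and carries it into autophagosomes, and it is itself a known target of NRF2. NRF2 is controlled mostly through the stability of its protein, which RNA counts do not show.

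In HT29 cells 3 patterns were seen among the 7 genes. NFE2L2 RNA was lower, and BACH1 RNA higher, than vehicle at all 3 doses of all 4 extracts. Neither was called between high and low dose, except BACH1 with Sibjeondaebo-tang once trends with transcript length and GC content were removed. MAFG and SQSTM1 were near vehicle at the low dose and higher at the high dose, except SQSTM1 with Sagunja-tang, which did not pass the test. In the main fit KEAP1 was higher at every dose and higher again at the high dose in 3 of 4 extracts. MAFK was called higher at the high dose of all 4. Without vehicle replicate 3, KEAP1 was called at the low dose in 0 extracts and MAFK at the high dose in 2. BACH1 was then called in 3 extracts at the high, 2 at the medium and 2 at the low dose. All comparisons with vehicle share its 3 libraries, whose sample codes begin differently from those of every extract library. MAFF, the least abundant, changed little. The differences were small, at most 0.52 on the log2 scale, a 1.44-fold rise, for KEAP1 with high-dose Sibjeondaebo-tang.

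The stretches before the transcription starts of KEAP1, MAFG, SQSTM1 and MAFF are shown because the first 3 are the members with the clearest difference between doses and MAFF is a small MAF gene without it. Each is the 250 bases before an annotated RefSeq start (GRCh38.p14), and capitals mark matches to the antioxidant response element core TGACNNNGC or the E-box TCACGTGA. The KEAP1 stretch lies at chr19:10502772-10503021 (minus strand), MAFG at chr17:81927736-81927985 (minus strand), SQSTM1 at chr5:179820655-179820904 (plus strand) and MAFF at chr22:38201744-38201993 (plus strand).
KEAP1: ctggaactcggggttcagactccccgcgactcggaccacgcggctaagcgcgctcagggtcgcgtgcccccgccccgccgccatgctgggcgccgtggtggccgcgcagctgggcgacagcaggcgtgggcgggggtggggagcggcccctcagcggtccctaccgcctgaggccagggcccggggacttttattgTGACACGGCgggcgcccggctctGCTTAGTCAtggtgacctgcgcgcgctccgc
MAFG: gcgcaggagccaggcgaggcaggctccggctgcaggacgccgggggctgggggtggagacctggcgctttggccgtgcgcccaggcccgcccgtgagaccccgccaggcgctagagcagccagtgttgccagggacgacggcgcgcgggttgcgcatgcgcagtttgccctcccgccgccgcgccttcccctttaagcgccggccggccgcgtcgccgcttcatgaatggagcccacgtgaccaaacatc
SQSTM1: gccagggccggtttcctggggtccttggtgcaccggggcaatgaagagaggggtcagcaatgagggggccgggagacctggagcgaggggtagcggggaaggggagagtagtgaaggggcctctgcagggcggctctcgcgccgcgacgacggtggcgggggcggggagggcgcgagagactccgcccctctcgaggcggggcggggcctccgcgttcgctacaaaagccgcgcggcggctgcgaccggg
MAFF: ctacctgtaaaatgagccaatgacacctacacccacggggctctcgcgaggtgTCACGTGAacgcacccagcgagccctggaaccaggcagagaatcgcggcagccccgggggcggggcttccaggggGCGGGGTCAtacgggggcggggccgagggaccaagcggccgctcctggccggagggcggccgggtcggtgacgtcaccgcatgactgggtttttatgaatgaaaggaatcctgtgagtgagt
RefSeq windows from 250 bases before to 50 bases after a start were given for 6 of the 7 members, 13 windows in all. KEAP1 and MAFF had 2 windows each, and for both the stretch shown is from the 1 window with a match. SQSTM1 had 3 windows, of which 1 is shown and none had a match, and MAFG had 1. On both strands, TGACNNNGC was found in 2 of the 13 windows, against 13.3% of all 35116 windows. In KEAP1 the matches were TGACACGGC, which begins 54 bases before the start, and GCTTAGTCA on the opposite strand, which begins 31 bases before it. In MAFF the match GCGGGGTCA begins 122 bases before the start, and TCACGTGA, found in 0.98% of windows, begins 197 bases before it. The AP-1 site TGANTCA was found in 1 member window, of BACH1, against 7.71% of all windows, and its longer form preceded by a MAF recognition stretch in 0 of 13, against 0.416%. These are matches of letters and no binding was measured.

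Total counts ran from 31.1 M to 35.6 M per vehicle library and from 28.6 M to 49.1 M with extracts. HT29 libraries carried epithelial RNA: 9 of 10 colon epithelial markers had a median above 1 CPM (counts scaled to a common library size), with summed levels of 12212 to 12651 CPM in vehicle and 11550 to 13974 CPM with extracts, while CDX1 had a median of 0.877 CPM. Markers of leukocytes, endothelium, stroma, liver and red cells summed to 3.71 to 3.82 CPM in vehicle and 3.21 to 4.57 CPM with extracts. Among them PTPRC, CD3E, COL1A2, COL3A1, DCN, ALB and HBB had a median of 0. PECAM1, COL1A1 and LUM had medians of 1.54, 1.21 and 0.844 CPM and were detected in every library. The 2 high-dose Sagunja-tang libraries differed most, with a chi-square per degree of freedom over genes of 24.3, which does not say which of them stands apart. Vehicle replicates 1 and 3 came next at 16.3, while vehicle replicates 2 and 3 had 7.63, and all other pairs of replicates lay between 3.39 and 15.8. The differences between these 2 Sagunja-tang libraries followed transcript length, with a Spearman rho of -0.248 across genes. The labels do not say that replicates were separate cultures, so the p-values measure the spread between these libraries, which may be technical. All 12 comparisons with vehicle share the same 3 vehicle libraries. The sample codes of those libraries begin differently from the codes of all extract libraries, so a difference between vehicle and every extract cannot be told apart from whatever that code stands for. The codes of Sagunja-tang and Samul-tang also begin differently from those of Palmul-tang and Sibjeondaebo-tang. A difference between these pairs of extracts therefore cannot be told apart from it either.

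Across the 33 libraries SQSTM1 was the most abundant member and MAFF the least. On a scale of CPM per kilobase of exon, SQSTM1 stood at 54.9 ± 6.32 (SD, n = 33), NFE2L2 at 20.8 ± 1.38, KEAP1 at 17.1 ± 1.88, MAFG at 16.0 ± 1.57, MAFK at 10.4 ± 1.06, BACH1 at 5.48 ± 0.30 and MAFF at 2.31 ± 0.10. These SD include the differences between groups, and KEAP1 stood above MAFG in every library with extracts. MAFF had 373 to 625 counts per library, so its counting error is the largest of the 7, while the next lowest, MAFK, had at least 1078 counts. In vehicle alone NFE2L2 stood at 24.4 ± 0.185 (n = 3), MAFG at 14.7 ± 0.111 and KEAP1 at 13.9 ± 0.939 CPM per kilobase. There MAFG and KEAP1 lay within their spread.

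**Figure D1:**
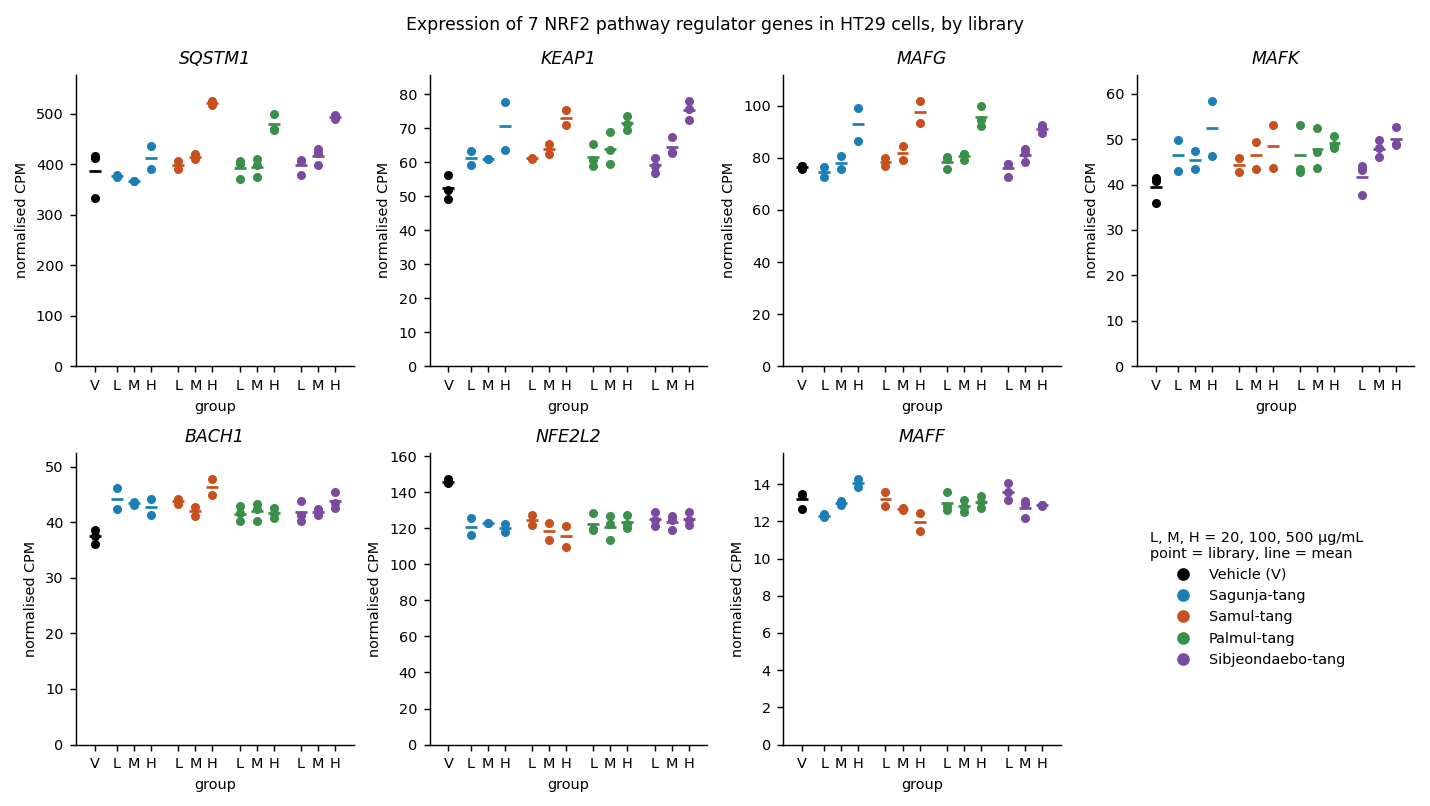
Normalised CPM of each gene (vertical axes, from 0) in all 33 libraries, by group (horizontal axes: V vehicle, then low, medium and high dose of each extract); points are libraries and lines are group means. NFE2L2 is below vehicle in all 30 extract libraries, whereas SQSTM1 and MAFG stand near vehicle at low dose and rise at high dose, SQSTM1 less clearly with Sagunja-tang.

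At the high dose 24 of 28 tests of members against vehicle were called by edgeR's quasi-likelihood test at a Benjamini-Hochberg adjusted p under 0.05, 19 higher and 5 lower. By extract these were 5 of 7 members with Sagunja-tang, where 36.7% of all tested genes were called, and 7 of 7 with Samul-tang, where 27.5% were. With Palmul-tang they were 6 of 7, beside 32.1% of all genes, and with Sibjeondaebo-tang 6 of 7, beside 39.6%. The median log2 fold change of the 7 members was 0.19, 0.31, 0.31 and 0.25 in these extracts, while the median of all genes was -0.01, 0.00, -0.01 and -0.02. At the medium dose 14 of 28 tests were called, 10 higher and 4 lower: 3, 3, 4 and 4 members in the 4 extracts, beside 16.4%, 20.1%, 20% and 26% of all genes. At the low dose 12 of 28 were called, 8 higher and 4 lower, the same 3 genes in each extract: NFE2L2, KEAP1 and BACH1. The share of all genes called was then 21.9%, 17.6%, 20.3% and 22%. Without vehicle replicate 3 the counts were 21 at the high, 10 at the medium and 6 at the low dose. Without both vehicle replicate 3 and Sagunja-tang high replicate 2 they were 21, 11 and 11.

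**Figure D2:**
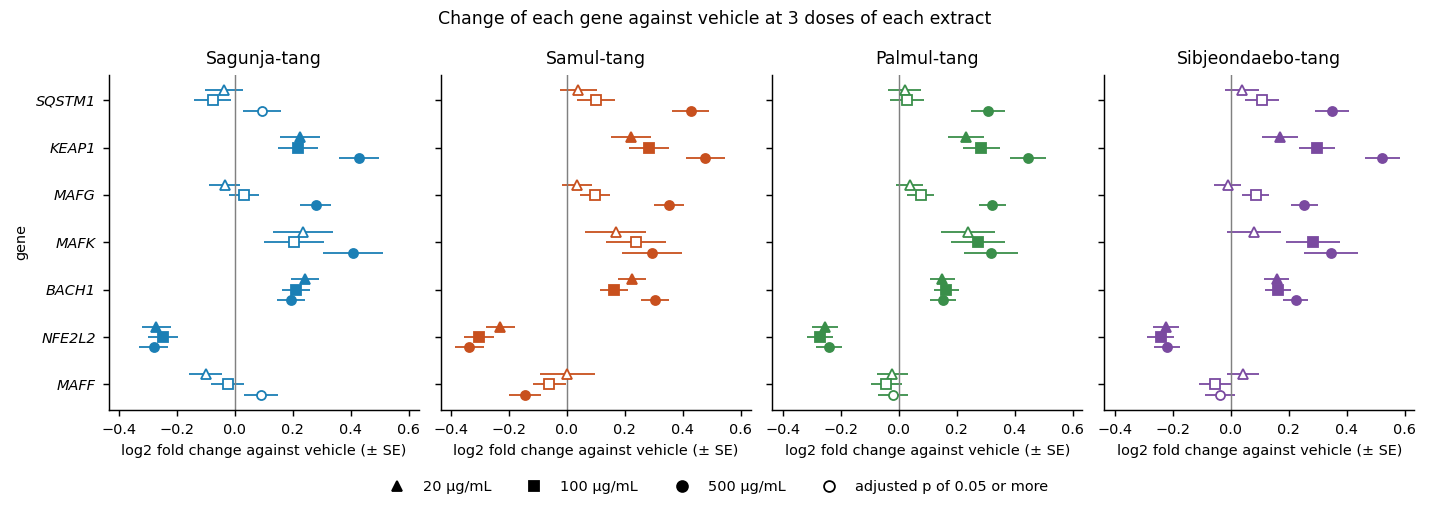
Log2 fold change against vehicle ± SE (horizontal axes, 1 panel per extract) for each gene (vertical axis), with triangles for 20, squares for 100 and circles for 500 µg/mL; filled symbols have an adjusted p under 0.05. KEAP1 lies between 0.43 and 0.52 at 500 µg/mL, NFE2L2 lies left of 0 and BACH1 right of 0 at every dose, and SQSTM1 lies at 0.09 with 500 µg/mL Sagunja-tang.

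NFE2L2, the gene of NRF2 itself (ENSG00000116044, chromosome 2, 177227595 to 177392697, minus strand, hg38), was lower than vehicle with every extract. Its span overlaps 11 annotated genes, among them AGPS on the opposite strand and AC019080.1 on the same strand. Its level was 147, 145 and 145 CPM in the 3 vehicle libraries. With Sagunja-tang it was 118 and 122 CPM at high, 123 and 123 at medium and 117 and 125 at low dose. With Samul-tang it was 110 and 121 CPM at high, 113 and 123 at medium and 127 and 122 at low dose. With Palmul-tang and Sibjeondaebo-tang the 18 libraries ran from 113 to 129 CPM. No extract library reached the lowest vehicle library, and the doses of an extract were not called apart.

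The fall of NFE2L2 against vehicle at the high dose was -0.28 ± 0.05, -0.34 ± 0.05, -0.24 ± 0.05 and -0.22 ± 0.05 in the 4 extracts (log2 fold change ± SE). At the low dose it was -0.27, -0.23, -0.25 and -0.22, and at the medium dose it ran from -0.30 to -0.24. Adjusted p ran from 2.08e-05 to 0.00317 over these 12 comparisons by edgeR's quasi-likelihood test. Between high and low dose the difference was -0.01 ± 0.06, -0.11 ± 0.06, 0.01 ± 0.04 and 0.00 ± 0.04, none called (adjusted p from 0.288 to 0.988). All 12 calls against vehicle were also made without vehicle replicate 3. Calls ended without replicate 2 of medium-dose Sagunja-tang (-0.24, adjusted p = 0.0512) or of low-dose Sagunja-tang (-0.21, adjusted p = 0.0512), and without replicate 3 of low-dose Samul-tang (-0.19, adjusted p = 0.0821, edgeR), each of which leaves 1 library in its group, assumed to vary like the other groups. In bulk RNA, fewer cells that carry a transcript and less of it per cell cannot be told apart, here and in what follows.

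KEAP1, the adaptor that marks NRF2 for degradation (ENSG00000079999, chromosome 19, 10486120 to 10503741, minus strand, overlapping AC011461.1 on the same strand), was higher than vehicle at all 12 doses and extracts. It stood at 56.2, 51.7 and 49.3 CPM in vehicle. At the low dose it was 59.2 and 63.3 CPM under Sagunja-tang, 60.9 and 61.3 under Samul-tang, 60.5, 65.5 and 58.7 under Palmul-tang and 58.9, 57.0 and 61.2 under Sibjeondaebo-tang. At the high dose it was 77.6 and 63.6 CPM under Sagunja-tang, 75.2 and 70.9 under Samul-tang, 73.7, 71.2 and 69.4 under Palmul-tang and 75.7, 72.4 and 78.0 under Sibjeondaebo-tang. High and low dose did not overlap in any of the 4 extracts, although Sagunja-tang high replicate 3, at 63.6 CPM, stood next to a low-dose library at 63.3 CPM. The share of all genes whose libraries separate in this way was not counted. Such statements, for this and the other members, therefore only describe these libraries.

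Against vehicle KEAP1 rose at the high dose by 0.43 ± 0.07, 0.48 ± 0.07, 0.45 ± 0.06 and 0.52 ± 0.06 (adjusted p from 2.34e-07 to 2.91e-05, edgeR). The medium-dose rises were 0.22, 0.28, 0.29 and 0.30 and the low-dose rises 0.22, 0.22, 0.23 and 0.17 (adjusted p from 0.00913 to 0.0466). From low to high dose the values were 0.20 ± 0.07, 0.26 ± 0.07, 0.21 ± 0.06 and 0.35 ± 0.06. The first, with Sagunja-tang, did not pass in the main fit (adjusted p = 0.0918 by edgeR). With no filter on low counts it was 0.19 and passed (adjusted p = 0.0426, edgeR). The low-dose calls rest on the vehicle group: without vehicle replicate 3, its lowest library, 0 of the 4 passed, with values of 0.18, 0.18, 0.19 and 0.13, and without vehicle replicate 2 only Palmul-tang passed. In each extract at least 1 of the low-dose libraries also ended the low-dose call when left out, and the medium-dose call with Sagunja-tang ended without vehicle replicate 2 or 3 or either of its own libraries. Leaving out any 1 of its 4 libraries ended the call between high and low dose of Samul-tang. With Palmul-tang this call ended without high replicate 1 (0.19, adjusted p = 0.0759), low replicate 1 (0.20, adjusted p = 0.0602) or low replicate 3 (0.18, adjusted p = 0.0917, edgeR). Without Sagunja-tang high replicate 3 the value with Sagunja-tang was 0.34 and passed.

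MAFG, a small MAF partner of NRF2 (ENSG00000197063, chromosome 17, 81918270 to 81927714, minus strand, overlapping SIRT7 on the same strand), was called higher than vehicle at the high dose of all 4 extracts and at no lower dose. Its vehicle libraries stood close together at 77.0, 75.9 and 76.7 CPM. At the low dose it was 76.7 and 72.7 CPM under Sagunja-tang, 79.9 and 77.1 under Samul-tang, 79.4, 80.5 and 75.7 under Palmul-tang and 77.7, 72.5 and 77.8 under Sibjeondaebo-tang. The low-dose libraries thus lay on both sides of vehicle. At the high dose it was 99.3 and 86.5 CPM under Sagunja-tang, 102 and 93.6 under Samul-tang, 100.0, 92.4 and 94.6 under Palmul-tang and 91.7, 89.5 and 92.6 under Sibjeondaebo-tang. Every high-dose library was above every vehicle, low-dose and medium-dose library.

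From low to high dose MAFG rose by 0.31 ± 0.06, 0.32 ± 0.06, 0.28 ± 0.05 and 0.26 ± 0.05 in the 4 extracts (adjusted p from 7.59e-05 to 0.00121, edgeR), and against vehicle the high dose was higher by 0.28, 0.35, 0.32 and 0.25. The medium-dose values against vehicle were 0.03, 0.10, 0.08 and 0.09, and the low-dose values -0.04, 0.04, 0.04 and -0.01, none of them called. MAFG was the 1 member called between high and low dose in all 4 extracts, although no test compared the members with each other. With Sagunja-tang this call ended without high replicate 2, where the value was 0.21 (adjusted p = 0.104, edgeR), and in a fit of the 2 doses alone (0.31, adjusted p = 0.570), where 0 genes in all were called.

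MAFK, the second small MAF gene (ENSG00000198517, chromosome 7, 1530714 to 1543043, plus strand, overlapping TMEM184A on the opposite strand), was higher than vehicle at the high dose of each extract. It stood at 40.7, 41.3 and 36.0 CPM in vehicle. At the high dose it was 58.4 and 46.4 CPM under Sagunja-tang, 53.1 and 43.7 under Samul-tang, 50.6, 48.8 and 48.1 under Palmul-tang and 48.7, 48.9 and 52.7 under Sibjeondaebo-tang. All 10 of these libraries were above vehicle, and the members of the Sagunja-tang and Samul-tang pairs lay far apart. Medium-dose libraries ran from 43.4 to 52.5 CPM and low-dose libraries from 37.7 to 53.1 CPM.

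The rise of MAFK at the high dose was 0.41 ± 0.10, 0.29 ± 0.10, 0.32 ± 0.09 and 0.35 ± 0.09 (adjusted p from 0.00278 to 0.0341, edgeR). At the medium dose Palmul-tang (0.27 ± 0.09) and Sibjeondaebo-tang (0.28 ± 0.09) passed, and the values with Sagunja-tang and Samul-tang were 0.21 and 0.24. None passed at the low dose in the main fit (0.24, 0.17, 0.24 and 0.08). From low to high dose MAFK rose with Sibjeondaebo-tang (0.27 ± 0.09, adjusted p = 0.0283, edgeR). That rise was not called without low replicate 1 (0.20, adjusted p = 0.151) or high replicate 3 (0.23, adjusted p = 0.109, edgeR). Low-dose Palmul-tang passed with the replicate number as a block (adjusted p = 0.0193, edgeR) and with DESeq2 (adjusted p = 0.0388). With no filter on low counts, low-dose Sagunja-tang (0.25), Samul-tang (0.18) and Palmul-tang (0.25) passed. Without vehicle replicate 3 the high-dose calls with Samul-tang (0.23) and Palmul-tang (0.26) and both medium-dose calls ended. The high-dose values fell to 0.24 with Sagunja-tang without its replicate 2 and to 0.15 with Samul-tang without its replicate 2, and neither passed.

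MAFF, the remaining small MAF gene (ENSG00000185022, chromosome 22, 38200767 to 38216511, plus strand, overlapping PLA2G6 on the opposite strand), stayed between 11.5 and 14.3 CPM in all 33 libraries. Vehicle stood at 13.5, 13.4 and 12.7 CPM. High-dose Samul-tang, at 12.5 and 11.5 CPM, lay just below the range of vehicle, and high-dose Sagunja-tang, at 13.9 and 14.3 CPM, just above it. Low-dose Sagunja-tang stood at 12.2 and 12.4 CPM. High-dose Samul-tang was called lower than vehicle by edgeR (-0.15 ± 0.05, adjusted p = 0.0495), and with Sagunja-tang MAFF was higher at the high than at the low dose (0.19 ± 0.06, adjusted p = 0.0434). Both calls stand near the threshold and ended with DESeq2, without a filter on low counts and with only the groups compared. The other 11 comparisons of MAFF with vehicle gave values from -0.10 to 0.09.

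BACH1, the repressor that competes for the same elements (ENSG00000156273, chromosome 21, 29194071 to 29630751, plus strand, overlapping BACH1-AS1 and GRIK1 on the opposite strand), was higher than vehicle in all 12 comparisons. Vehicle stood at 38.7, 37.6 and 36.1 CPM, and the 30 extract libraries ran from 40.2 to 47.7 CPM, all above it. At the high dose it was 41.4 and 44.2 CPM under Sagunja-tang, 47.7 and 44.9 under Samul-tang, 42.6, 41.6 and 40.7 under Palmul-tang and 42.5, 45.3 and 43.4 under Sibjeondaebo-tang. At the low dose it was 46.1 and 42.4, 44.2 and 43.3, 42.9, 41.6 and 40.2, and 41.3, 40.3 and 43.8 CPM in the same extracts. High-dose and low-dose libraries overlapped with Sagunja-tang, Palmul-tang and Sibjeondaebo-tang and did not overlap with Samul-tang.

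BACH1 was higher than vehicle by 0.19 ± 0.05, 0.31 ± 0.05, 0.15 ± 0.04 and 0.22 ± 0.04 at the high dose, 0.21, 0.16, 0.16 and 0.16 at medium and 0.24, 0.22, 0.15 and 0.16 at low (adjusted p from 3.49e-05 to 0.0179, edgeR). From low to high dose the values were -0.05 ± 0.05, 0.08 ± 0.05, 0.00 ± 0.04 and 0.07 ± 0.04, none called (adjusted p from 0.264 to 0.988). With length and GC trends removed the last of these, with Sibjeondaebo-tang, was 0.12 and was called (adjusted p = 0.0253, edgeR). Without vehicle replicate 3 the call against vehicle held at the high dose in 3 extracts and at the medium and low dose in 2 extracts each. With only the groups compared in the fit it ended for high-dose Sagunja-tang (adjusted p = 0.0875), medium-dose Samul-tang (0.0680) and medium- and low-dose Palmul-tang (0.0585 and 0.0558, edgeR). Leaving out 1 extract library ended it for high-dose Sagunja-tang without replicate 3, medium- and low-dose Sagunja-tang and medium-dose Samul-tang without replicate 2, medium- and low-dose Palmul-tang without replicate 1, and low-dose Sibjeondaebo-tang without replicate 3, with values from 0.13 to 0.21. BACH1 and NFE2L2 thus moved in opposite directions against vehicle at every dose, in comparisons that share the vehicle libraries.

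SQSTM1, the autophagy receptor p62 (ENSG00000161011, chromosome 5, 179806398 to 179838078, plus strand, overlapping MGAT4B and MRNIP on the opposite strand), rose at the high dose of 3 extracts. Vehicle stood at 412, 416 and 333 CPM, replicate 3 being the low one. With Samul-tang SQSTM1 was 525 and 516 CPM at high and 390 and 405 at low dose, with Palmul-tang 498, 470 and 468 at high and 406, 399 and 371 at low, and with Sibjeondaebo-tang 496, 489 and 493 at high and 406, 378 and 408 at low. In these 3 extracts every high-dose library was above every vehicle, medium-dose and low-dose library. With Sagunja-tang it was 436 and 390 CPM at high, 366 and 367 at medium and 375 and 379 at low dose, so that the high dose overlapped vehicle and did not overlap the lower doses.

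SQSTM1 values from low to high dose were 0.13 ± 0.07, 0.39 ± 0.07, 0.29 ± 0.06 and 0.31 ± 0.06. The last 3 passed (adjusted p from 0.000168 to 0.00098, edgeR) and the first, with Sagunja-tang, did not (adjusted p = 0.265). Against vehicle the high-dose values were 0.09 ± 0.07, 0.43 ± 0.06, 0.31 ± 0.06 and 0.35 ± 0.06, again with the first not called (adjusted p = 0.284). The medium-dose values ran from -0.08 to 0.11 and the low-dose values from -0.04 to 0.04, none called. Without vehicle replicate 3 the high-dose values were 0.00, 0.33, 0.21 and 0.25, with the last 3 called, and medium-dose Sagunja-tang was called lower (-0.17, adjusted p = 0.0379). The rise from low to high dose was larger with Samul-tang than with Sagunja-tang by 0.26 ± 0.10, which did not pass (adjusted p = 0.361, edgeR). The extracts were thus not shown to differ in the main fit. For Sibjeondaebo-tang minus Sagunja-tang the main value was 0.18. It was 0.26 without vehicle replicate 3 and Sagunja-tang high replicate 2, a fit that leaves 1 high-dose Sagunja-tang library. RSEM, which made the counts, can share reads between SQSTM1 and its processed pseudogene, and the strand setting of the counting was not given in the sources used here, so reads from opposite-strand neighbours cannot be told apart for the members that have them.

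From low to high dose 12 of 28 tests of members were called higher and 0 lower by edgeR's quasi-likelihood test, with 13 higher and 1 lower at an unadjusted p under 0.05 and 0 called lower by DESeq2. By extract these were 2 of 7 members with Sagunja-tang, beside 7.19% of all tested genes called in either direction and 3.33% called higher. With Samul-tang they were 3 of 7 (7.53% either way, 4.1% higher), with Palmul-tang 3 of 7 (14.4%, 7.66%) and with Sibjeondaebo-tang 4 of 7 (29.9%, 15.5%). The median of the 7 members was 0.17, 0.13, 0.08 and 0.26, and the median of all genes 0.00, 0.00, 0.00 and -0.01. From low to medium dose 0 of 28 were called by edgeR and 0 by DESeq2, with 3 at an unadjusted p under 0.05, all higher. In that step 0%, 0.00574%, 0.00574% and 0.0975% of all genes were called in the 4 extracts. The members' called difference between doses thus lay between low and high, and the low-to-medium values ran up to 0.20 ± 0.09, for MAFK with Sibjeondaebo-tang.

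Whether the rise from low to high dose differed between extracts was tested for all 6 pairs, 42 tests, of which 1 was called. MAFF rose less with Sibjeondaebo-tang than with Sagunja-tang, by -0.27 ± 0.07 (adjusted p = 0.0463, edgeR), where 1.95% of all genes were called. That call ended in most fits that left out a high- or low-dose library of either extract. For the other pairs the share of all genes called was 0.138% (Samul-tang minus Sagunja-tang), 0.00574% (Palmul-tang minus Sagunja-tang), 0% (Palmul-tang minus Samul-tang), 1.49% (Sibjeondaebo-tang minus Samul-tang) and 1.45% (Sibjeondaebo-tang minus Palmul-tang). For KEAP1 the 6 differences ran from -0.04 to 0.15 with SE of 0.09 to 0.10, and for MAFG from -0.05 to 0.00 with SE of 0.07 to 0.08. That these differences missed the threshold does not show that the extracts act alike.

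Other genes of the pathway were described by lists of known roles. The lists were chosen with earlier results of these data known, so their counts only describe these genes. Their counts from low to high dose stand beside 7.19%, 7.53%, 14.4% and 29.9% of all tested genes called in the 4 extracts, and 3.33%, 4.1%, 7.66% and 15.5% called higher. The 30 NRF2 target enzyme and transporter genes, all tested, rose from low to high dose in 24, 28, 28 and 29 cases, with medians of 0.34, 0.69, 0.60 and 0.75 beside all-gene medians from -0.01 to 0.00. AKR1C2, an aldo-keto reductase gene, rose by 1.08 ± 0.09, 2.23 ± 0.09, 1.64 ± 0.07 and 2.31 ± 0.07. Like the other list genes named, it was picked for small p-values in these same comparisons, so it does not stand for its list. The largest value among the 7 regulators was 0.39, for SQSTM1 with Samul-tang. At the low dose against vehicle 3, 2, 4 and 3 of these targets were higher and 5, 4, 4 and 7 lower, with medians of -0.02, 0.00, 0.04 and 0.01. Among the 8 genes repressed by BACH1, 6, 7, 7 and 7 rose from low to high dose and 1 fell in each extract. GCLM, a subunit of glutamate-cysteine ligase, rose by 0.58, 0.98, 0.79 and 0.89, and HMOX1, the heme oxygenase gene, by 0.52, 1.10, 0.99 and 0.86. GCLM, HMOX1, NQO1 and TXNRD1 are in both lists.

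The list of ubiquitin ligase and turnover genes of NRF2, with 18 genes, had small median changes. From low to high dose 3 rose with Palmul-tang and 7 with Sibjeondaebo-tang, 1 fell with Samul-tang, and its medians were 0.03, 0.04, 0.06 and 0.10. TRIM21, a ubiquitin ligase, fell by 0.28 ± 0.05 on the log2 scale with Samul-tang, and its values in the other extracts were -0.13, -0.10 and -0.05. CUL1 (0.19 ± 0.03) and DDB1 (0.17 ± 0.04), both parts of cullin ligases, rose with Sibjeondaebo-tang, where 29.9% of all genes were called.

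Of 9 genes for proteins that bind KEAP1, 1, 1, 2 and 4 rose and 1, 1, 1 and 2 fell from low to high dose, beside 7.19%, 7.53%, 14.4% and 29.9% of all genes called either way. SESN1, a sestrin gene, fell in all 4 extracts, with values of -0.26 ± 0.05, -0.41 ± 0.05, -0.48 ± 0.04 and -0.45 ± 0.04. PGAM5, a mitochondrial phosphatase gene, had values of 0.14 ± 0.05, 0.18 ± 0.05, 0.23 ± 0.04 and 0.31 ± 0.04, called in the last 3. Among 12 other autophagy receptor and ATG8 genes the calls were falls: 3 with Samul-tang and 4 each with Palmul-tang and Sibjeondaebo-tang, beside 7.53%, 14.4% and 29.9% of all genes called either way. The count with Sibjeondaebo-tang is thus near the share of all genes. OPTN, the optineurin gene, had values of -0.18 ± 0.06, -0.38 ± 0.06, -0.33 ± 0.05 and -0.27 ± 0.05, and CALCOCO2, another receptor gene, -0.03, -0.18, -0.13 and -0.22. For both the first, with Sagunja-tang, was not called.

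Over the 12 extract groups the mean log2 CPM of KEAP1 followed that of MAFG (Pearson r = 0.95) and of SQSTM1 (0.89), and MAFG followed SQSTM1 (0.88). KEAP1 and MAFK had r = 0.82, and MAFG and MAFK 0.75. NFE2L2 had r from -0.45 to 0.52 with the other 6 members, and BACH1 and MAFF from -0.53 to 0.52 with all others. These are descriptions over 12 groups whose order is largely that of dose, and the groups share their libraries' normalisation.

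Among 9665 other genes of average log2 CPM 3 or more, the ones most like each member over the 12 extract groups were taken by Pearson r. For SQSTM1 these were HMOX1 (0.98), OSGIN1 (0.98) and IDH3A (0.97). HMOX1 and OSGIN1 are on the list of NRF2 targets. KEAP1 was followed most closely by ANXA1 (0.99), NQO1, the quinone reductase gene (0.99), and EPHB6 (0.99), and MAFG by MYLIP (0.99), the heme transporter gene SLC48A1 (0.98) and MSANTD3 (0.97). For MAFK they were SDHAF1, STK11 and TYMS, at 0.94, 0.93 and 0.93. The closest genes to BACH1 were RAP2C (0.92), DNAJB14 (0.87) and TMEM68 (0.86), those to NFE2L2 PRUNE1, TINF2 and DYNLRB1 (all 0.88), and those to MAFF MFSD13A (0.90), PTPN7 (0.87) and VPS28 (0.85). The median absolute r over all candidates was 0.59 for KEAP1, 0.54 for MAFG, 0.52 for MAFK and 0.50 for SQSTM1, against 0.21 for NFE2L2, 0.21 for BACH1 and 0.26 for MAFF, so high values are common for the genes that move with dose. HMOX1 stood at 11.2 ± 0.383 CPM in vehicle (n = 3) and at 15.2 ± 1.62, 26.2 ± 0.452, 22.9 ± 0.49 and 22.3 ± 0.73 CPM at the high dose of the 4 extracts, in which Sagunja-tang was the lowest, as it was for SQSTM1.

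**Figure D3:**
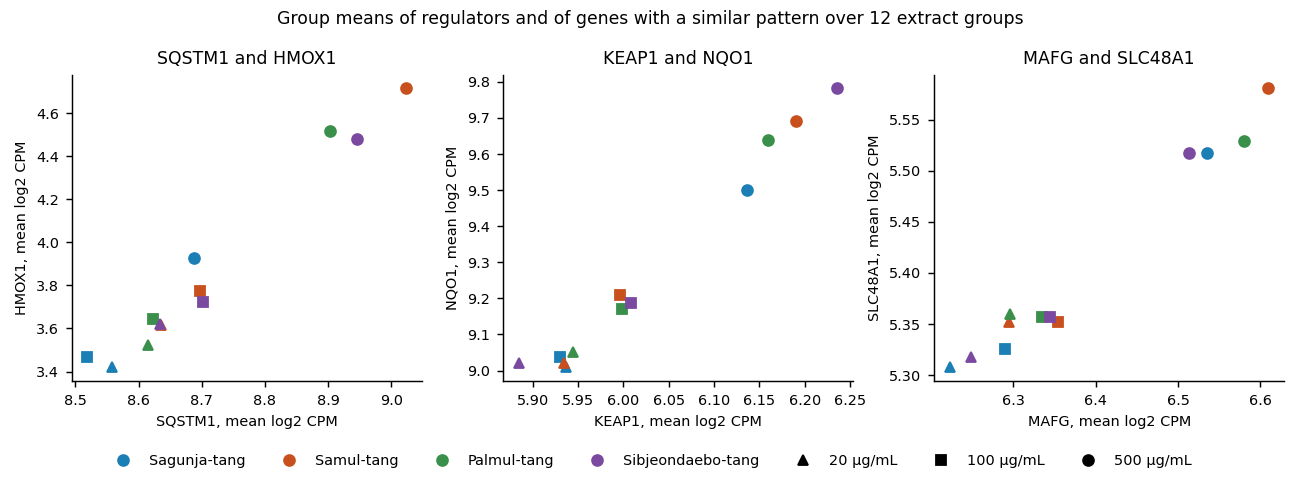
Mean log2 CPM per extract group of SQSTM1, KEAP1 and MAFG (horizontal axes) against HMOX1, NQO1 and SLC48A1 (vertical axes), with colours for the 4 extracts and triangles, squares and circles for 20, 100 and 500 µg/mL; neither axis starts at 0. The high-dose groups stand apart at the upper right in all 3 panels, except that high-dose Sagunja-tang lies between the others and the lower doses for SQSTM1 and HMOX1.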

How the data were processed

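RNA sequencing of HT29 cells gave 1 table of RSEM expected counts per gene, in which 33 of 273 columns belong to these samples and 240 were not used. Per the submitters' processing notes, the authors used FastQC 0.11.9, Trim Galore 0.6.5, STAR 2.7.3a, RSEM 1.3.3 and the hg38 genome before they deposited the estimated counts, of which 9.45% were not whole. The annotation release and the strand setting are not given in the sources used here. The counts were rounded, and samples were grouped by extract and dose from the labels. Genes were kept by filterByExpr (minimum count 10), which left 17432 of 60675, and were tested with edgeR 4.0.16 (R 4.3.3; TMM normalisation, 1 coefficient per group over 33 libraries, quasi-likelihood tests, Benjamini-Hochberg adjustment over all genes, threshold 0.05). Residual degrees of freedom were 20, prior degrees 7.00 and the common biological variation (BCV) 0.0489. The SE is the one that the p-value implies. In all 26 comparisons were made: each dose with vehicle, high and medium with low, and the high-to-low change between extracts. The scripts were tested on simulated data. Changes of 0.25 on the log2 scale between high and low dose were recovered there for 22.4% of changed genes in the Samul-tang design. In the Palmul-tang design it was 35.8%, so changes this small can be missed. Far fewer genes were called there than in these data, so the shares need not hold here.

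CPM are TMM-normalised, and log2 CPM used for correlations have a prior count of 2. Positions, exon lengths and overlaps came from GENCODE 29, in which 57055 identifiers were found, and promoter sequences from RefSeq (GRCh38.p14). Alternatives were DESeq2 1.42.0, its RLE size factors in edgeR, all genes without the count filter, a fit of just the groups in each comparison, a replicate block, removal of length and GC trends (splines with 5 degrees of freedom), and leaving out each library. Leaving out vehicle replicate 3 and Sagunja-tang high replicate 2 together was chosen after seeing the data. The members and lists were chosen with earlier results of these data known. All 7 members are named, with up to 4 genes per list by smallest geometric mean p over the 4 high-to-low comparisons, and the 3 genes most correlated with each member. Wortmannin and LY294002, named in the series text, were not used here.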

Additional observations from a re-analysis of the deposited data

Results flagged for a closer look

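The change of MAFF from low to high dose differed between Sibjeondaebo-tang and Sagunja-tang by a test of the difference itself (-0.27 ± 0.07 on the log2 scale, adjusted p = 0.0463, edgeR's quasi-likelihood test). MAFF went from 12.2 and 12.4 to 13.9 and 14.3 CPM with Sagunja-tang, higher in 2 of 2 libraries. With Sibjeondaebo-tang it went from 13.1, 14.1 and 13.6 to 12.9, 12.9 and 12.9 CPM. The adjusted p was 0.129 with DESeq2 and 0.351 without a filter on low counts. By edgeR it was 0.0696 with length and GC trends removed and 0.231 with only the groups compared. The call also ended without any of the high-dose Sibjeondaebo-tang libraries (adjusted p from 0.0708 to 0.0937, edgeR). It ended without low replicate 2 (0.127) or 3 (0.0793) of that extract too. Leaving out any high- or low-dose Sagunja-tang library, which leaves a single library in its group, ended it as well (values from -0.30 to -0.25).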

How the results depend on the processing

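With 2 or 3 libraries a group, the smallest called change of a member was 0.15 on the log2 scale, and MAFF, with 373 to 625 counts per library, had the least depth. No called change of a member turned direction in any fit, and no direction is claimed for values that were not called. Of the 182 single results, RLE size factors kept all 182 on the same side of the threshold, DESeq2 178, the fit with no filter 172, the fit with length and GC trends removed 172, the groups compared alone 173, and the fit without vehicle replicate 3 and Sagunja-tang high replicate 2 kept 167. Leaving out 1 library gave 21 to 24 calls at the high, 10 to 14 at the medium and 6 to 12 at the low dose against vehicle, 10 to 12 between high and low, 0 to 0 between medium and low, and 0 to 1 between extracts. The lowest counts against vehicle (21, 10 and 6) all came without vehicle replicate 3. Between medium and low dose 1 call appeared with no filter, MAFK with Sibjeondaebo-tang (0.20, adjusted p = 0.0335), and the call between extracts fell to 0 with no filter, with length and GC trends removed, with only the groups compared and with DESeq2. With length and GC trends removed the low-dose rise of KEAP1 was 0.16, 0.15 and 0.10 and no longer passed with Sagunja-tang, Samul-tang and Sibjeondaebo-tang, and BACH1 was called higher at the high than at the low dose of Sibjeondaebo-tang (0.12 against 0.07). The cause of these changes was not tested.

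With the replicate number as a block the counts were 23, 14, 13, 12, 0 and 1. The labels do not say that a number marks a shared batch, and not every same-numbered pair deviated together, so the numbers were not taken as a pairing. Deviations from the group means correlated with r over 0.1 in 83 of 177 same-numbered pairs (median 0.081) and in 74 of 324 other pairs (median -0.046), and 25 of 33 libraries correlated best with one of their own number, a hint from the data that libraries of 1 number share variation. Over all genes, the groups compared alone gave 2182 in place of 6391 calls for high-dose Sagunja-tang, 1597 in place of 2867 and 1779 in place of 3483 for medium-dose Sagunja-tang and Palmul-tang against vehicle, and 0 in place of 1254 between high and low Sagunja-tang. Between medium and low dose, calls over all genes ranged over the fits from 0 to 81, 1 to 75, 0 to 78 and 7 to 240 (main values 0, 1, 1 and 17). Between extracts they ranged from 0 to 380 (main value 24) for Samul-tang minus Sagunja-tang, 0 to 237 (1) for Palmul-tang minus Sagunja-tang, 66 to 647 (340) for Sibjeondaebo-tang minus Sagunja-tang and 0 to 87 (0) for Palmul-tang minus Samul-tang. For Sibjeondaebo-tang minus Samul-tang they were 250 to 500 (260), and minus Palmul-tang 246 to 473 (252).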

Other observations

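Of 12 listed cofactor genes of NRF2 10 were tested. At the high dose against vehicle 7, 5, 6 and 5 were lower and 1, 2, 2 and 2 higher in the 4 extracts, in the order used above, beside 36.7%, 27.5%, 32.1% and 39.6% of all tested genes called either way. With the low dose 4, 3, 6 and 7 were lower and 1, 1, 1 and 2 higher, beside 21.9%, 17.6%, 20.3% and 22%. From low to high dose 1 was lower with Sagunja-tang and 2 were higher with Sibjeondaebo-tang, by edgeR. PPARG, a nuclear receptor gene, was lower than vehicle at the high dose by -0.23 ± 0.05, -0.24 ± 0.05, -0.20 ± 0.05 and -0.11 ± 0.05. The median over the tested cofactors was -0.27, -0.17, -0.18 and -0.11 at the high dose, beside all-gene medians of -0.01, 0.00, -0.01 and -0.02.

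Of the 8 relatives of NRF2 and large MAF genes 4 were tested. NFE2L1, a relative of NRF2, stood at 278 ± 1.17 CPM in vehicle and was lower with high-dose Sagunja-tang (-0.13 ± 0.04), with values of -0.05, -0.07 and -0.02 in the other extracts.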
